A study of Mus musculus with 31 samples.

Results

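The liver transcriptome of mice kept on free feeding was measured after a first fast of 16 h and compared with that of mice from the same cohort that were not fasted. The comparison rests on 16 of the 31 arrays of the study, 8 labelled 'Fed-Fed-Fed' and 8 labelled 'Fed-Fed-Fast', each from the liver of 1 male C57BL/6 mouse aged 3 to 4 months. Both groups came from a cohort of 24 mice that ate ad libitum for 8 weeks. They are called fed livers and fasted livers here: the fed mice were sampled in the ad libitum state and the fasted mice at the end of a 16 h fast, both in the morning. The labels name no transgene, diet or drug in either group. The other 15 arrays came from mice that had already been through 2 fasts of 16 h in those 8 weeks, with a return to normal growth after each, and were then sampled fed ('Fast-Fast-Fed', 8 arrays) or after the third fast ('Fast-Fast-Fast', 7 arrays). These are used only to set values of the first fast beside those of other animals. The members described are the 22180 genes that the array names by a single symbol, each represented by the brightest of its probe sets, by the mean of the 31 arrays. Affymetrix whole-transcript arrays measure hybridised RNA as a brightness, and every level below is the log2 of that brightness for 1 animal after the authors' normalisation, so a difference of 1 is a doubling. A gene is called when limma's moderated test, adjusted by the Benjamini-Hochberg method across the 22180 genes, gave an adjusted p under 0.05, and the adjusted p-values below are from that test. Replicates were read as separate animals, and their number limits the precision of each value.

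The liver carries a mammal through the gap between meals. In the fed state insulin drives it to store glucose as glycogen and to build fatty acids and sterols, under the transcription factors SREBP and ChREBP. When food stops, insulin falls and glucagon and glucocorticoids rise, glycogen is spent, and fatty acids released by fat tissue become the fuel: the nuclear receptor PPAR-alpha switches on their oxidation and the making of ketone bodies, while FoxO1, CREB and the glucocorticoid receptor raise glucose synthesis from amino acids, lactate and glycerol.

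The labelled tissue was borne out by its markers. The mean of 11 hepatocyte markers lay between 10.53 and 10.63 in fed livers and between 10.54 and 10.65 in fasted livers, and Alb, the serum albumin gene, ran from 12.99 to 13.07 and from 12.92 to 13.02 (change -0.07, SE 0.04, adjusted p = 0.407). A few arrays stood apart from their group. Fasted replicate 4 held transcripts of adrenal cortex and medulla and of brown fat that were near the bottom of the scale elsewhere: Cyp11b1, the last enzyme of corticosterone synthesis, read 7.57 in it against 0.99 to 1.42 in the other 7 fasted livers, Th, the first enzyme of catecholamine synthesis, 5.07 against at most 1.67, and Ucp1, the uncoupling protein of brown fat, 6.78 against at most 1.56. Fasted replicate 5 had the strongest response. A slope of each array's departure from the fed mean on the changes of the third fast, over the 296 genes that moved more than 2-fold there, was 1.24 in replicate 5, between 0.929 and 1.05 in the other 7 fasted livers, and between -0.0968 and 0.0785 in the fed ones. Fed replicates 1, 2 and 3 had the highest Kupffer cell marker levels of their group. Some of the results that rest on these arrays are given with and without them.

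**Figure D1:**
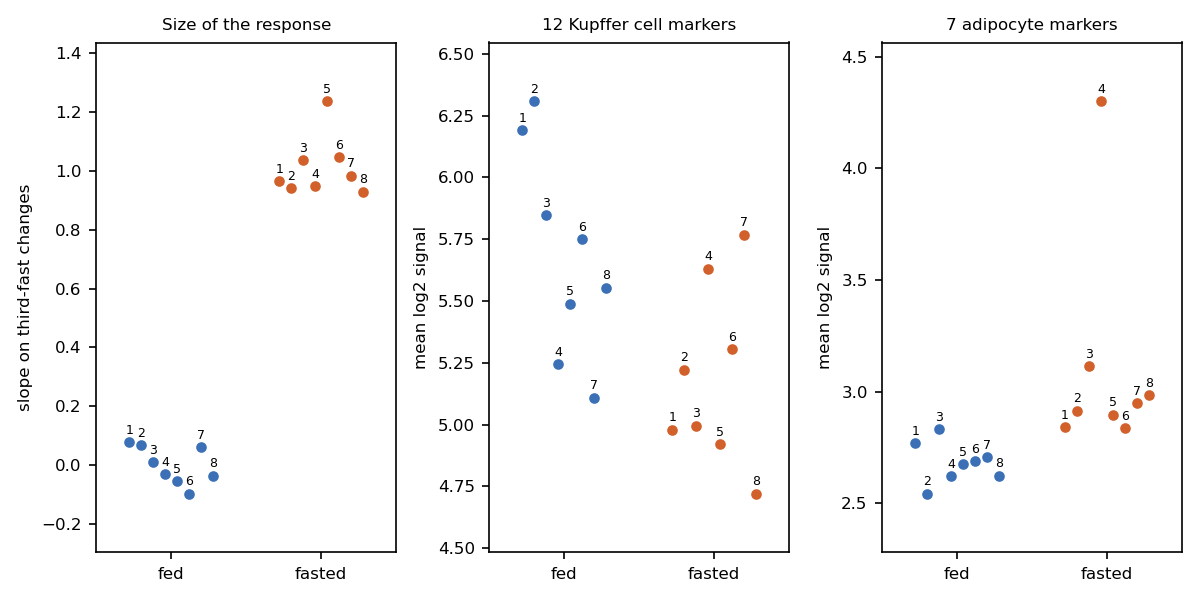
Readings of every array, fed (blue) and fasted (orange), numbered by replicate: the slope of the array's departure from the fed mean on changes in the third fast over 296 genes, the mean log2 signal of 12 Kupffer cell markers, and the mean log2 signal of 7 adipocyte markers. Fasted replicate 5 lies above its group in the left panel with a slope of 1.24, and fasted replicate 4 above its group in the right panel with a mean of 4.30.

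A first fast moved 2768 of 22180 genes, or 12.5%, with 1387 higher (6.25%) and 1381 lower (6.23%) in fasted livers. Most of the changes were small. The median called rise was 0.45 and the median called fall was -0.46, and 1871 called genes, 67.6% of the calls, changed by less than 1.5-fold. More than 2-fold changes numbered 166 rises (0.748% of genes) and 152 falls (0.685%), more than 4-fold changes 42 and 43, and more than 8-fold changes 11 and 10. The median change over all genes was -0.0036, which the authors' normalisation holds near 0, so a change of total RNA cannot be read from it. For 949 genes (4.28%) the 8 fed and the 8 fasted livers did not overlap, with all fasted values above all fed ones for 483 (2.18%) and below for 466 (2.10%). That held for 279 of the 318 genes changed by more than 2-fold. Calls were more frequent among bright genes: with genes ranked by level into 4 groups of 5545, 0.541% were called in the dimmest, then 1.77% and 14.3%, and 33.3% in the brightest. Protein-coding genes were called at 13.9% (2633 of 18964), long non-coding RNAs at 4.41% (85 of 1926) and microRNA precursors at 2.30% (11 of 478). The spread between animals was much the same in both states, with a median SD over all genes of 0.189 in fed and 0.188 in fasted livers. Among the 166 genes that rose more than 2-fold it was 0.280 in fed and 0.326 in fasted livers.

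**Figure D2:**
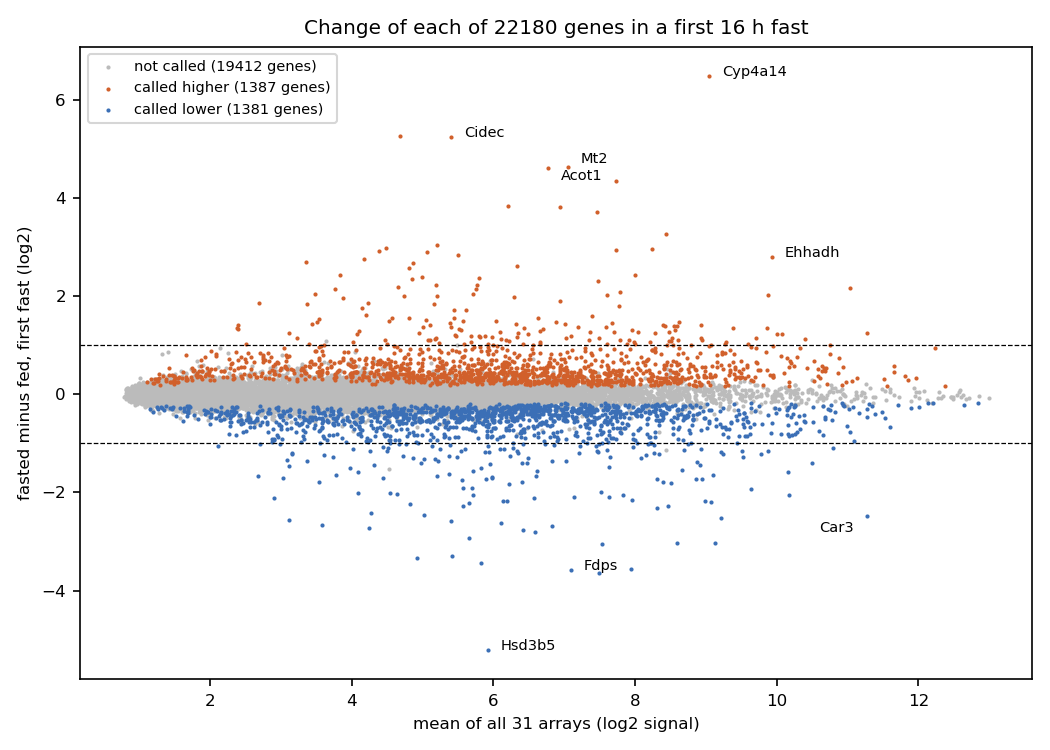
Change of each of 22180 genes in the first fast (vertical axis, fasted minus fed, log2) against its mean over all 31 arrays (horizontal axis, log2), with genes called higher in orange, called lower in blue and not called in grey, and dashed lines at 2-fold. The 1387 rises and 1381 falls are alike in number, and calls are few below a mean of about 2.26, the middle of the level range over genes.

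The largest rise was that of Cyp4a14, which hydroxylates the far end of fatty acids. It varied widely among fed livers and little among fasted ones: fed livers ran from 1.93 to 7.62 (median 5.76) and fasted livers from 11.98 to 12.33 (median 12.14). Its change of 6.50 therefore depends on which fed animals are compared, and it was 5.97 without fed replicate 6, the animal with the lowest level. Cidec, which fuses and enlarges lipid droplets, ran from 2.03 to 3.38 in fed livers (median 2.86) and from 7.51 to 9.58 in fasted ones (median 7.87), with no overlap. The second largest change, 5.28 (SE 0.26), was that of E030018B13Rik, a protein-coding gene model with no symbol of its own. The acyl-CoA thioesterases Acot1 and Acot2, which release free fatty acids from CoA in the cytosol and in mitochondria, went from medians of 4.45 and 5.62 to 9.12 and 10.04, and the peroxisomal Acot3 from 2.88 to 5.63. The Acot genes are close copies in sequence, as are Cyp4a14 and Cyp4a31 (change 3.82, SE 0.26), so signal may be shared between copies.

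Mfsd2a, which imports lysophospholipids carrying omega-3 fatty acids, rose by 3.27 (SE 0.29, adjusted p = 1.11e-10), from 5.15 to 7.86 in fed livers to 9.51 to 11.06 in fasted ones. Slc27a1, a fatty acid transporter better known from muscle and fat, rose by 2.75 (SE 0.15, adjusted p = 3.48e-15), and the monocarboxylate transporter gene Slc16a5 by 2.68 (SE 0.27) with its brighter and 3.46 with its dimmer probe set. Vnn1, which frees pantothenate, the vitamin part of CoA, ran from 5.78 to 6.81 in fed livers and from 8.80 to 9.53 in fasted ones. Cntnap1, known from the nerve axon, rose by 2.69 (SE 0.24) and the long non-coding RNA Ctcflos by 2.90 (SE 0.18). Cyp17a1, a steroid hydroxylase that the adrenal also makes, lay between 4.53 and 6.38 in fed livers and between 8.99 and 10.53 in fasted ones, with the top value in fasted replicate 5 and the next at 9.42. Its change was 3.71, 3.54 without that array and 3.75 without fasted replicate 4, which held the adrenal transcripts.

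Growth-arrest genes were above the fed range in every fasted animal, but their fasted levels spread widely. Gadd45b, a stress-induced partner of kinases, lay between 5.25 and 6.82 in fasted livers against 2.58 to 3.54 in fed ones. Gadd45g, its relative, spanned 5.40 to 8.23 (median 6.17) against 2.76 to 4.17 (median 3.22), and Cdkn1a, which codes for the cell cycle inhibitor p21, 5.66 to 9.11 (median 6.71) against 3.28 to 5.27 (median 3.99). The top values of Gadd45g and Cdkn1a were both from fasted replicate 5, and the next were 7.21 and 7.99. Fasted replicate 5 also had the highest Nr4a1 (8.37, next 4.97), Jun (8.46, next 6.25) and Sik1 (8.58, next 6.40), genes that respond within minutes to hormones and stress. None of these 3 was called (adjusted p = 0.19, 0.614 and 0.0796). Sik1 was called under 3 of 26 alternative fits, with changes of 0.66 to 1.19 over all of them.

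**Figure D3:**
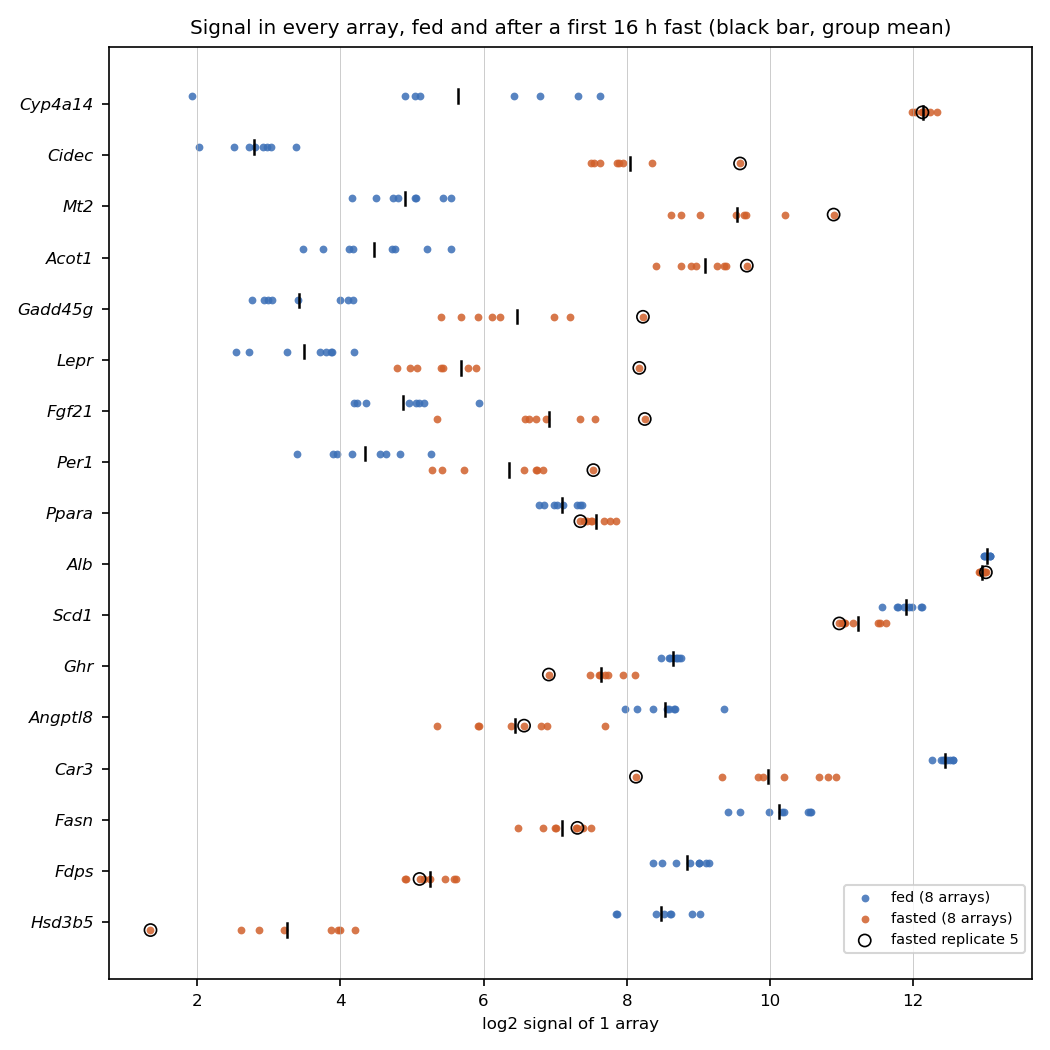
Log2 signal of 17 genes in each of the 8 fed (blue) and 8 fasted (orange) livers, with group means as black bars and fasted replicate 5 circled. Cyp4a14 spreads over 5.69 log2 units in fed livers and 0.347 in fasted ones, Alb does not separate the groups, and replicate 5 has the highest fasted value of Gadd45g and Lepr and the lowest of Car3 and Hsd3b5.

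The metallothioneins Mt1 and Mt2 bind zinc and copper and are switched on by metals, through the factor MTF1, and by glucocorticoids. Mt2 lay between 4.16 and 5.55 in fed livers (median 4.92) and between 8.62 and 10.89 in fasted ones (median 9.58). Mt1 lay between 3.77 and 4.87 (median 4.37) and between 7.64 and 9.12 (median 8.20). Fasted livers were above fed livers in both, without overlap, and the genes are neighbours on chromosome 8. The bases before their starts are shown because they carry the metal response element, searched as TGCACNC or TGCGCNC on both strands and given in capitals. RefSeq (GRCm38.p6) places them on the plus strand at chr8:94172368-94172617 for Mt2 and chr8:94178839-94179088 for Mt1.
Mt2: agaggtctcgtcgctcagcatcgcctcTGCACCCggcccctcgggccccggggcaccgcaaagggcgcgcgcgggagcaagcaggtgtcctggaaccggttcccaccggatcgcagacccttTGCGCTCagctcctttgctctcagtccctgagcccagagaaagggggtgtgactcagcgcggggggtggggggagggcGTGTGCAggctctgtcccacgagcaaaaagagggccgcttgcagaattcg
Mt1: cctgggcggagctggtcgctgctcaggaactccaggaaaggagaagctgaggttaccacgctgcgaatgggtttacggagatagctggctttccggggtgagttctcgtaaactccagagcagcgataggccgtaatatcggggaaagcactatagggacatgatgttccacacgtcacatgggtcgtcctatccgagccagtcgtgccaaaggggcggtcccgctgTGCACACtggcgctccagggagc
The 250 bases before Mt2 hold 3 matches and those before Mt1 hold 1. With the 50 bases after the start, not shown, Mt2 has 4 and Mt1 has 3. The letters are common, found in 32.7% of the 16990 measured genes with a promoter entry used here (300 bases, 250 before and 50 after the start). The share was 37.3% among those that rose more than 2-fold and 38.7% among those that fell more than 2-fold.

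The largest fall was that of Hsd3b5, a steroid dehydrogenase typical of adult male liver, which lay between 7.85 and 9.02 in fed livers and between 1.35 and 4.20 in fasted ones (medians 8.57 and 3.54), and its lowest value was that of fasted replicate 5. Thrsp, which promotes fatty acid synthesis, went from 8.98 to 10.34 in fed livers to 5.68 to 6.54 in fasted ones, and Fabp5, which carries fatty acids, from 5.39 to 7.46 to 2.68 to 3.74. Of the other 3 probe sets of Fabp5, 2 fell by 2.17 and 3.40, and the dimmest was not called (-0.50).

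Transport and plasma protein genes were also among the 20 steepest falls. Aqp8, a water and peroxide channel, fell by 2.81 (SE 0.26, adjusted p = 3.11e-10). Serpina7, which carries thyroid hormone in plasma, fell by 2.77 (SE 0.25, adjusted p = 2.71e-10), and Serpina4-ps1, a serpin pseudogene, by 3.65 (SE 0.31). Adgrf1, an adhesion receptor, fell by 2.57 (SE 0.28, adjusted p = 1.27e-08). Clec2h, a lectin-like gene, was the only 1 of the 20 falls named by the rule whose groups overlapped, since 1 fasted liver read 4.34 and 1 fed liver 4.07. Car3, a carbonic anhydrase, sat within 12.26 to 12.56 in all 8 fed livers and spread over 8.13 to 10.92 in fasted ones.

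Some changes under 2-fold were measured precisely. The 10 with the smallest p were Acad11, Acadl, Acot12, Cpt2, Ech1, Eci1, Ei24 and Mat1a, which rose, and Ddost and Tram1, which fell. Acadl, the long-chain acyl-CoA dehydrogenase, lay between 8.75 and 9.03 in fed livers and between 9.65 and 9.92 in fasted ones (change 0.90, SE 0.06, adjusted p = 8.52e-14). Mat1a, which makes S-adenosylmethionine, lay between 11.61 and 12.03 and between 12.62 and 12.86. Ddost, a subunit of the enzyme that attaches sugars to proteins entering the endoplasmic reticulum, and Tram1, which helps those proteins cross its membrane, fell by 0.99 and 0.80 (SE 0.07 and 0.05). None of these 4 genes had overlapping groups.

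**Figure D4:**
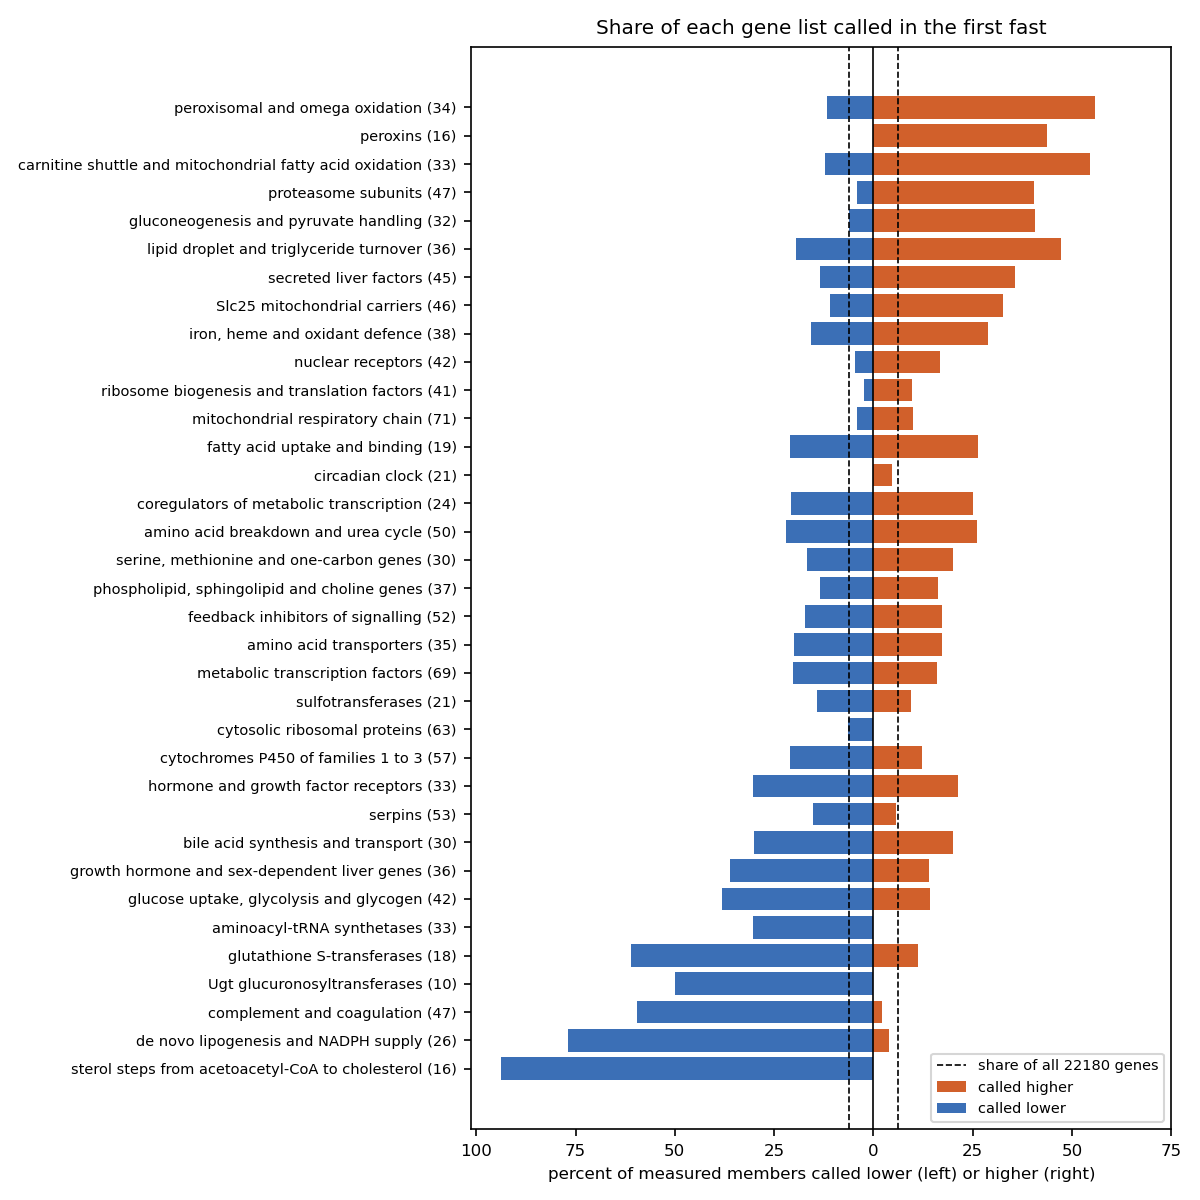
Share of the measured members of 35 gene lists called higher (orange, right) or lower (blue, left) in the first fast, with the number of measured members in brackets and dashed lines at the shares of all 22180 genes, 6.25% and 6.23%. Peroxisomal and omega oxidation, peroxins and mitochondrial fatty acid oxidation lie at the top. Sterol synthesis, lipogenesis and complement and coagulation lie at the bottom.

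Counts of list members called are to be read beside 12.5% of all genes and 33.3% of the brightest of the 4 level groups. For lists with a median level above 5.20, the lower end of that group, 33.3% is the closer comparison by level. Among 42 nuclear receptor genes, 7 were called higher and 2 lower, or 21.4% against 12.5% of all genes. Their median change was 0.04 against -0.0036 over all genes. The largest rise was that of Nr1i3, the constitutive androstane receptor, which senses drugs and bilirubin and went from 7.60 to 8.17 in fed livers to 9.14 to 9.55 in fasted ones (change 1.39, SE 0.11, adjusted p = 1.75e-11). Ppara, the receptor of the fasting response, rose by only 0.47 (SE 0.11, adjusted p = 0.00255), with values of 6.78 to 7.37 and 7.35 to 7.84 that just overlapped. Hnf4a, a master regulator of hepatocytes, rose by 0.36 (SE 0.07, adjusted p = 0.000102), and Esrrg, which drives mitochondrial genes, by 0.52 (SE 0.14, adjusted p = 0.00902) without overlap. Nr3c1, the glucocorticoid receptor, fell by 0.34 (SE 0.08, adjusted p = 0.0033) and Thrb, the thyroid hormone receptor of liver, by 0.40 (SE 0.09, adjusted p = 0.00234). Nr1h4, the bile acid receptor FXR, was not called (0.04, SE 0.09, adjusted p = 0.875).

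Of 69 other transcription factors of metabolism, 11 were called higher and 14 lower, 36.2% against 33.3% of the brightest level group. Srebf1, which codes for the SREBP-1 activators of lipogenesis, fell the furthest, from 6.57 to 7.46 in fed livers to 3.30 to 4.90 in fasted ones, while Srebf2, its counterpart for sterols, fell by only 0.42 (SE 0.10, adjusted p = 0.00223). Mlxipl, which codes for ChREBP, the glucose-sensing activator, fell by 1.00 (SE 0.08, adjusted p = 2.87e-11), with every fasted value below every fed one. Hes6, a repressor of the Hes family, fell by 1.66 (SE 0.15), and Onecut1, also known as HNF6, by 1.56 with a wide spread (3.96 to 7.98 fed, 3.80 to 6.10 fasted, adjusted p = 0.0282). The Onecut1 call was lost without any 1 of 6 arrays (fed 1, 4 or 8, fasted 2, 3 or 6), with changes of -1.33 to -1.49. Zbtb16, a zinc finger repressor induced by glucocorticoids, rose by 1.56 (SE 0.28), Cebpb and Cebpd, of the C/EBP family, by 1.11 and 1.03 (SE 0.17 and 0.11), and Atf5, a factor of the stress response, by 1.07 (SE 0.10). Foxo1 rose by 0.49 (SE 0.12, adjusted p = 0.00333) and by 0.20, without a call, on its dimmer probe set.

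Of 24 coregulator genes, 6 were called higher and 5 lower, and a pair with related roles moved apart. Insig1 and Insig2 both code for proteins that hold the SREBP escort in the endoplasmic reticulum. Insig1, itself an SREBP target, fell from 10.02 to 10.91 in fed livers to 7.11 to 8.04 in fasted ones, and Insig2 rose from 8.00 to 9.12 to 9.26 to 10.12, neither with overlap. Lpin1 and Lpin2, phosphatidate phosphatases that also act in the nucleus, rose by 0.93 and 1.10 (SE 0.31 and 0.15), and Ppargc1a, the coactivator PGC-1 alpha, by 0.89 (SE 0.22, adjusted p = 0.00408). Lpin1 spread over 7.00 to 9.21 in fasted livers and overlapped the fed range of 6.86 to 7.83. Its call was lost (adjusted p over 0.05) without any 1 of fed replicates 2 to 6 or of fasted replicates 2, 5, 6, 7 or 8, with changes of 0.79 to 0.95.

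Receptors by which the liver hears hormones changed in both directions: of 33, 7 were called higher and 10 lower, 51.5% in all. Lepr, the leptin receptor, rose from 2.54 to 4.19 (median 3.75) to 4.79 to 8.17 (median 5.41). The highest of these, in fasted replicate 5, was well above the next at 5.89, and without that array the change was 1.83 in place of 2.19. Il6ra, the interleukin-6 receptor, rose by 0.81 (SE 0.17). The receptors of insulin and glucagon moved little: Insr rose by 0.25 (SE 0.06, adjusted p = 0.0034) and Gcgr by 0.21 (SE 0.07, adjusted p = 0.0374), the latter no longer called without any 1 of fed replicates 2, 5 and 6 or fasted replicates 3, 5, 6 and 8 (0.18 to 0.21). On the falling side, Ghr, the growth hormone receptor, lay between 8.48 and 8.75 in fed and between 6.91 and 8.12 in fasted livers (change -1.01, SE 0.11). Adra1b, an adrenaline receptor, fell by 1.40, Lifr, the receptor of leukaemia inhibitory factor, by 1.18 and Fgfr3, a fibroblast growth factor receptor, by 1.11, all without overlap. Feedback inhibitors of signalling were called 9 higher and 9 lower of 52, among them Errfi1, which restrains the EGF receptor, up by 0.86 (SE 0.15), and Trib3, a pseudokinase that binds Akt, up by 0.77 (SE 0.14).

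Of 45 secreted liver factors, 16 were called higher and 6 lower. Igfbp1, which ties up insulin-like growth factors, lay between 5.87 and 8.22 in fed livers and between 9.22 and 11.39 in fasted ones. Igf1 itself was not called (0.07, SE 0.08, adjusted p = 0.698). Fgf21, the fasting hormone of the liver, went from 4.19 to 5.93 (median 5.01) to 5.35 to 8.25 (median 6.80), which overlapped. A pair of secreted inhibitors of lipoprotein lipase, the enzyme that lets tissues take up blood triglyceride, moved in opposite directions: Angptl4 lay between 8.55 and 9.15 in fasted livers against 5.98 to 7.58 in fed ones, and Angptl8, which is made after meals, between 5.34 and 7.70 against 7.97 to 9.36. The activin subunit gene Inhba fell by 1.00 (SE 0.21) and its relative Inhbe rose by 0.88 (SE 0.19). Lect2, a hepatocyte-derived chemotactic factor, fell by 0.99 (SE 0.15) without overlap, and Hamp2, a relative of the iron hormone hepcidin, by 1.35 (SE 0.26).

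Genes that burn fatty acids in the mitochondrion and the peroxisome were called higher more often than lower, and some of each were not called. Of 33 genes of the carnitine shuttle and mitochondrial oxidation, 18 were called higher, 4 lower and 11 not, with a median change of 0.39. Slc22a5, which brings carnitine into the cell, lay between 3.86 and 5.19 in fed livers and between 6.24 and 7.73 in fasted ones. Crat, which makes short-chain carnitine esters, lay between 5.59 and 7.01 and between 8.31 and 8.95, though its dimmer probe set rose by only 0.69. Cpt1a, the gate of the mitochondrion for long-chain fatty acids, lay between 9.08 and 9.39 and between 10.45 and 10.77, the smallest spread of these 3. The 4 that fell were all acyl-CoA synthetases, Acsm5, Acsm1, Acsl4 and Acsl5, with changes of -0.69, -0.63, -0.55 and -0.40 (SE 0.11, 0.10, 0.13 and 0.08). Acsm enzymes activate medium-chain acids, and the Acsl enzymes long-chain ones.

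Of 34 genes of peroxisomal and omega oxidation, 19 were called higher, 4 lower and 11 not (median 0.47), and of 16 peroxins, the proteins that build peroxisomes, 7 higher and 0 lower (median 0.21). Ehhadh, the bifunctional enzyme of the peroxisome, was among the most regular rises of all, 8.34 to 8.89 in fed livers and 11.16 to 11.56 in fasted ones (change 2.80, SE 0.10, adjusted p = 6.17e-20). Pex11a, which makes peroxisomes divide, lay between 6.39 and 7.17 and between 8.26 and 9.02, and Pex19, the receptor for peroxisomal membrane proteins, rose by 0.67 (SE 0.08, adjusted p = 3.7e-08). Against this, Nudt7, which hydrolyses CoA inside peroxisomes, lay between 9.35 and 10.30 in fed livers and between 7.46 and 8.08 in fasted ones. Cyp4f14, a leukotriene and fatty acid hydroxylase, and Adh4, an alcohol and retinol dehydrogenase, fell by 1.79 and 1.22 (SE 0.11 and 0.14) without overlap.

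Of 36 genes of lipid droplets and triglyceride turnover, 17 were called higher and 7 lower (median 0.33). The droplet coat genes Plin5 and Plin4 lay between 5.75 and 6.37 and between 1.86 and 2.88 in fed livers, and between 7.30 and 8.91 and between 3.55 and 4.66 in fasted ones. Pnpla2, the lipase ATGL that starts triglyceride breakdown, rose by 1.47 (SE 0.14, adjusted p = 3.25e-10), and so did its inhibitor G0s2, by 1.29 (SE 0.24, adjusted p = 0.000139), with overlap in the inhibitor only. Pnpla3, a relative under SREBP control, lay between 2.26 and 5.00 in fed and between 1.49 and 2.07 in fasted livers. Gpam, which attaches the first fatty acid to glycerol, fell by 0.85 (SE 0.14), and Ces1g, a carboxylesterase, by 1.02 (SE 0.16). Among 19 genes of fatty acid uptake and binding 5 were called higher and 4 lower, with Fabp2, the intestinal-type binding protein, up by 0.74 (SE 0.10) and Fabp1, the liver-type one, lower by a small step, from a median of 11.42 to 11.21 (adjusted p = 0.0322, over 0.05 without any 1 of fed replicates 3 to 6 or fasted replicates 5, 7 and 8). Of 37 phospholipid, sphingolipid and choline genes 6 were called higher and 5 lower, 29.7% against 33.3% of the brightest level group. Cd36, a fatty acid scavenger receptor, rose by 0.88 (SE 0.25, adjusted p = 0.0147) with overlap. Its highest fasted value, 8.82 (next 8.22), was that of fasted replicate 4, which held the brown fat transcripts. The change of Cd36 ran from 0.72 to 1.07 over 26 alternative fits and was called in all of them.

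The genes that make fatty acids were mostly lower. Of 26 genes of lipogenesis and its NADPH supply, 20 were called lower and 1 higher (median -0.64), 80.8% in all. Fasn, the fatty acid synthase, lay between 9.42 and 10.57 in fed livers and between 6.48 and 7.51 in fasted ones. Aacs, which reclaims acetoacetate for lipid synthesis, lay between 5.47 and 7.95 and between 3.44 and 4.33. The acetyl-CoA suppliers Acly and Acss2, which use citrate and acetate, fell by 2.27 and 2.06 (SE 0.16 and 0.16), and Acaca, the first committed enzyme, by 1.35 (SE 0.12). Desaturases changed less: Scd1 fell by 0.66 (SE 0.10, adjusted p = 1.27e-05) with overlap, Fads1 by 0.63 (SE 0.08), and Fads2 was not called (0.05, SE 0.08, adjusted p = 0.819). Elovl5, which elongates polyunsaturated fatty acids, was the 1 riser, by 0.33 (SE 0.10, adjusted p = 0.0263; 0.27 and 0.30 without fed replicates 4 and 8 and 0.31 without fasted replicate 5, none called), while Elovl6, which elongates saturated ones, fell by 1.39 (SE 0.18, adjusted p = 6.08e-07).

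Sterol synthesis had the highest share of called members of the 50 gene lists counted. Of 16 measured enzymes on the way from acetoacetyl-CoA to cholesterol, 15 were called lower and 0 higher, or 93.8% against 12.5% of all genes, with a median of -2.15, and 14 did not overlap. In the mevalonate steps, Hmgcs1, which makes HMG-CoA, lay between 9.59 and 10.41 in fed livers and between 7.39 and 8.59 in fasted ones, and Mvk, Pmvk and Mvd, which phosphorylate and decarboxylate mevalonate, changed by -1.44, -2.11 and -2.47 (SE 0.15, 0.13 and 0.20). At the branch to sterols, Fdps, which makes farnesyl diphosphate, lay between 8.37 and 9.14 and between 4.90 and 5.61, the largest change of the pathway. Fdft1 and Sqle, which make squalene and its epoxide, changed by -1.80 and -3.45 (SE 0.13 and 0.22), and Lss, which closes the rings, by -2.22 (SE 0.16). Among the enzymes that trim lanosterol, Cyp51, Msmo1 and Nsdhl changed by -2.69, -2.62 and -3.05 (SE 0.15, 0.17 and 0.15), while Tm7sf2, Hsd17b7 and Ebp, which act between and after them, had differences of only -0.52, -0.13 and -0.47 (SE 0.11, 0.12 and 0.06). Hsd17b7 was the 1 gene not called (adjusted p = 0.631). The last enzymes, Sc5d and Dhcr7, both changed by -1.57 (SE 0.09 and 0.14).

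**Figure D5:**
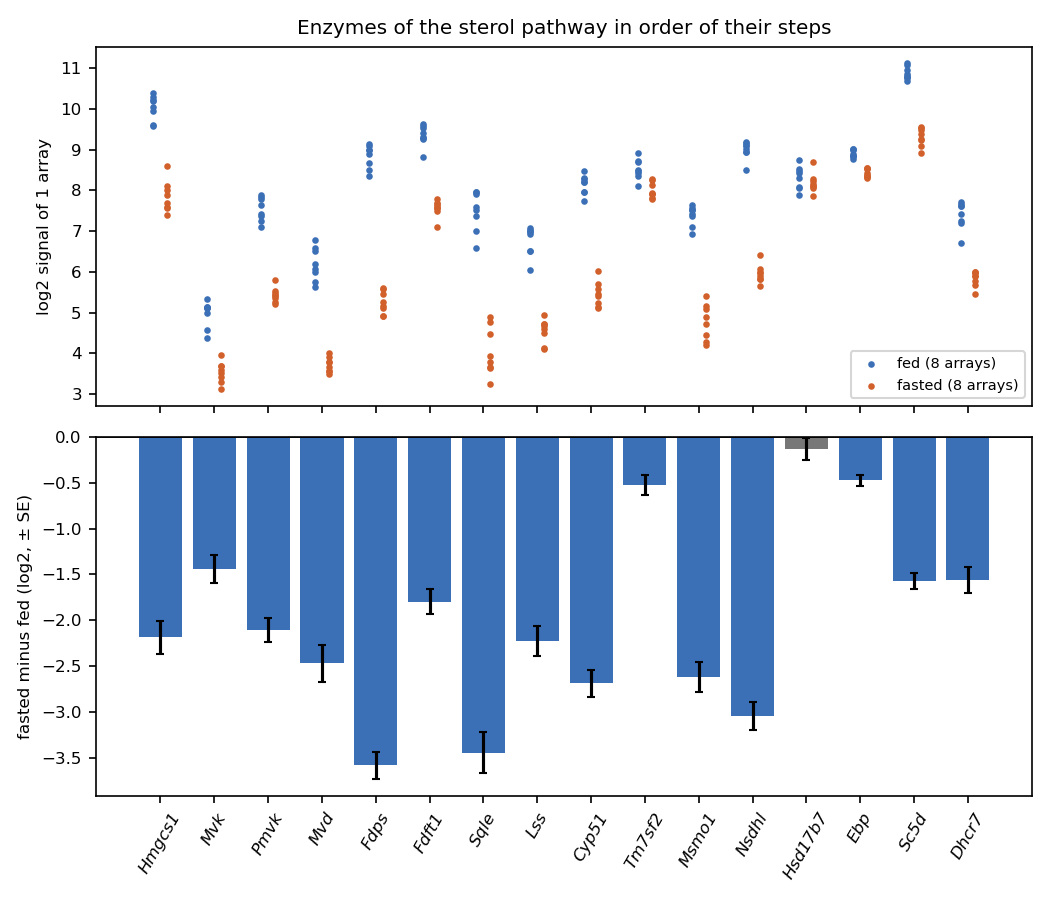
Enzymes of sterol synthesis in the order of their steps: log2 signal in each fed (blue) and fasted (orange) liver above, and the change with its standard error below, with the 1 uncalled gene in grey. The 3 smallest changes, -0.52 for Tm7sf2, -0.13 for Hsd17b7 and -0.47 for Ebp, lie among late steps, between steps that changed by more than 1.5.

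SREBP factors bind the sterol regulatory element beside sites for NF-Y, a factor that reads CCAAT. The upstream bases of Hmgcs1 are shown because it was the only 1 of the 13 sterol-step genes with a RefSeq promoter entry that held the letters TCACNCCAC on either strand (1.43% of the 16990 entries did), given in capitals, 137 bases before the start. The window is chr13:119690101-119690350, plus strand, GRCm38.p6.
Hmgcs1: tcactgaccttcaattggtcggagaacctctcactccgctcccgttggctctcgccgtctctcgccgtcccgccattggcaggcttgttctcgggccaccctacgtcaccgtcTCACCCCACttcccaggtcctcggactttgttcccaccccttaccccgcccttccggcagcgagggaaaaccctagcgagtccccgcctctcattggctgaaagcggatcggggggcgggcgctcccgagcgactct
CCAAT, on either strand, was found in all 13, against 41.6% of all promoter entries, 58.0% of the genes that fell more than 2-fold and 52.2% of those that rose more than 2-fold. In all 13 it lay within 150 bases before the start, where 29.3% of all entries have one. The 4 with the largest falls are shown, with 10 bases on each side of the match nearest to the start. They were chosen after these shares were seen. A capital ATTGG is CCAAT read on the other strand, and the windows are chrX:72918491-72918515 (plus strand), chr5:4104712-4104736 (minus), chr8:64733619-64733643 (minus) and chr8:122443435-122443459 (minus).
Nsdhl: gactagcctcATTGGgcaaaatcat
Cyp51: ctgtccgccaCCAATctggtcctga
Msmo1: gtggggcggaCCAATtacgacaggc
Mvd: ggccagcgggCCAATcatatggcag
The uncalled Hsd17b7 was 1 of the 13, as were Tm7sf2 and Ebp, so genes with large and with small changes had the letters. These are matches of letters in reference sequence, and binding was not measured.

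Of 42 genes of glucose uptake, glycolysis and glycogen, 6 were called higher and 16 lower (median -0.13). Pklr, the liver pyruvate kinase, lay between 9.24 and 10.37 in fed livers and between 7.82 and 8.24 in fasted ones. Pygl, which breaks glycogen down, fell by 1.01 (SE 0.09, adjusted p = 4.39e-11) and Gbe1, which branches it, by 0.93 (SE 0.10), while Gys2, the glycogen synthase of liver, rose by 0.68 (SE 0.11, adjusted p = 1.86e-05), none with overlap. Pfkfb2, which sets fructose 2,6-bisphosphate, rose by 0.87 (SE 0.13) and Ldha, a lactate dehydrogenase subunit, by 0.73 (SE 0.09). The glucose transporter Slc2a1, the form of red cells and brain, rose by 0.60 (SE 0.13, adjusted p = 0.000797) on its brighter probe set and by 0.07, not called, on the dimmer one.

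Of 32 genes of glucose synthesis and pyruvate handling, 13 were called higher and 2 lower (median 0.20). Pck1, which makes phosphoenolpyruvate, lay between 10.22 and 11.05 in fed livers and between 11.80 and 12.04 in fasted ones. The aminotransferases Got1 and Gpt2, which feed the pathway from amino acids, rose by 1.15 and 1.08 (SE 0.25 and 0.10). Pdk4, which shuts off pyruvate oxidation, spread over 4.88 to 8.02 in fasted livers against 4.33 to 5.90 in fed ones (adjusted p = 0.0102). Dlat and Pdhb, subunits of the complex that Pdk4 inhibits, fell by 0.48 and 0.43 (SE 0.08 and 0.08), the only 2 that fell.

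Genes of nitrogen handling changed in both directions: of 50 genes of amino acid breakdown and the urea cycle, 13 were called higher and 11 lower (median 0.04). Within the urea cycle, Asl, which splits argininosuccinate, lay between 9.09 and 9.50 in fed livers and between 10.28 and 10.93 in fasted ones, and Ass1, the step before it, between 4.14 and 5.77 and between 5.79 and 7.50. Otc, the step before those, fell by 0.56 (SE 0.08, adjusted p = 1.03e-06). Aass, of lysine breakdown, rose by 1.23 (SE 0.11) and Oat, of ornithine breakdown, by 0.82 (SE 0.12). Haao, of the tryptophan pathway that leads to NAD, fell by 0.85 (SE 0.07, adjusted p = 2.87e-11) and Glud1, glutamate dehydrogenase, by 0.51 (SE 0.08). Of 30 genes of serine, methionine and one-carbon metabolism, 6 were called higher and 5 lower, 36.7% against 33.3% of the brightest level group. The largest of these changes was that of Nnmt, which methylates nicotinamide, up by 1.30 (SE 0.21, adjusted p = 2.44e-05). Of 35 amino acid transporters, 6 were called higher and 7 lower, with Slc7a2, which imports arginine and ornithine, up by 0.86 (SE 0.13) and Slc3a1, which anchors a cystine carrier, down by 1.48 (SE 0.23).

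Bile acid genes moved in both directions. Of 30, 6 were called higher and 9 lower (median -0.01). Cyp7a1, the rate-limiting enzyme of the classic pathway, was not called and varied widely in both states, 7.71 to 9.83 fed and 7.91 to 9.61 fasted (change -0.06, SE 0.31, adjusted p = 0.949). Cyp8b1, which directs synthesis to cholic acid, lay between 8.30 and 9.36 and between 9.96 and 10.28, without overlap. Of the canalicular pumps, Abcb11, which exports bile acids, fell from 10.33 to 10.60 to 8.99 to 9.57, and Abcb4, which exports the phospholipid that shields the duct from them, rose from 8.91 to 9.27 to 9.97 to 10.32. Atp8b1, the lipid flippase of the same membrane, fell by 0.90 (SE 0.09). Among the uptake carriers, Slco1a4 rose by 1.38 and Slco1a1 fell by 1.21 (SE 0.17 and 0.13).

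Among drug-metabolising families more genes were called lower than higher. Of 57 cytochromes P450 of families 1 to 3, 7 were called higher and 12 lower, of 18 glutathione S-transferases 2 and 11, of 10 Ugt glucuronosyltransferases 0 and 5, and of 21 sulfotransferases 2 and 3. Gstm3 lay between 6.77 and 7.56 in fed livers and between 4.70 and 5.78 in fasted ones, and Gstt2 moved the other way by 1.18 (SE 0.14). Cyp2c70, the enzyme of mouse muricholic acid synthesis, lay between 10.95 and 11.48 and between 8.79 and 10.19, without overlap, its top fasted value standing apart from the next at 9.45. Cyp2b10, the classic target of Nr1i3, rose by 1.63 (SE 0.28, adjusted p = 4.71e-05), and Cyp2c39 and Cyp2c38 by 2.01 and 1.39 (SE 0.17 and 0.27). Cyp2c55 fell by 2.42 (SE 0.21) on its brighter probe set, against -0.85 on the dimmer. Members of these families resemble each other in sequence, and signal may be shared among them.

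Genes of complement and coagulation, which hepatocytes secrete, were called lower for 28 of 47 and higher for 1 (median -0.28), 61.7% in all, by modest steps: the range was -1.57 to 0.56. F11, coagulation factor XI, lay between 8.42 and 9.11 in fed livers and between 6.98 and 8.12 in fasted ones, and C8a and C9, of the pore that complement builds, fell by 0.86 and 0.83 (SE 0.10 and 0.10). C4a, a near copy of another complement gene, fell by 1.57 (SE 0.25). Pros1, protein S, an anticoagulant, was the 1 that rose, by 0.56 (SE 0.11, adjusted p = 0.000216). Of 53 serpins, 3 were called higher and 8 lower. Serpina6, which carries corticosteroids in plasma, went from a median of 9.84 in fed to 8.33 in fasted livers without overlap, and Serpina3n, an acute phase inhibitor, rose by 0.55 (SE 0.09).

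Of 47 proteasome genes, 19 were called higher and 2 lower (median 0.15), with Psmd4, a ubiquitin receptor of the proteasome, between 7.20 and 7.67 in fed livers and between 7.90 and 8.55 in fasted ones. The 2 that fell, Psmb8 and Psmb10 (-0.41 and -0.69, SE 0.11 and 0.09), are catalytic subunits of the immunoproteasome. Psmb8 overlapped (6.04 to 6.92 fed, 5.70 to 6.61 fasted), and it was not called with the 16 arrays alone (-0.41) or without fasted replicates 4 and 5 (-0.35). Of 33 aminoacyl-tRNA synthetases, which load amino acids for translation, 10 were called lower and 0 higher (median -0.16). That is 30.3% against 33.3% of the brightest level group. The largest fall was that of Cars, the cysteine enzyme, at 5.89 to 6.53 in fed livers and 4.82 to 5.27 in fasted ones. Of 63 cytosolic ribosomal proteins only 4 were called, all lower (6.35% against 12.5% of all genes). That count was 8 without fasted replicate 2 and 11 with an intensity trend in the fit or without dim genes. Of 41 genes of ribosome biogenesis and translation, 4 were called higher and 1 lower, a count of 5 that was 2 or 3 without any 1 of fed replicates 2, 4 and 8 or fasted replicates 5, 6 or 7. It was 3 with the 16 arrays alone, the replicate block or array weights, 1 without fed replicates 1, 2 and 3, and 8 without dim genes. Of 71 respiratory chain genes 7 were called higher and 3 lower, 14.1% against 12.5% of all genes, with changes of -0.32 to 0.43. Their median level of 7.59 lies in the brightest of the 4 level groups, where 33.3% of genes were called. Without fasted replicate 5 or fed replicate 4 or 6, 5 or 6 of the 71 were called. Of 46 Slc25 carriers, most of them in the inner mitochondrial membrane, 15 were called higher and 5 lower. Slc25a22, a glutamate carrier, rose by 1.41 (SE 0.14), Slc25a25, an ATP and phosphate carrier, by 1.14 (SE 0.26) and Slc25a47, found in liver only, by 1.12 (SE 0.14), while Slc25a37, which imports iron, fell by 0.69 (SE 0.08).

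Of 38 genes of iron, heme and oxidant defence, 11 were called higher and 6 lower. Within heme synthesis Alas1, the first enzyme, and Cpox, a late one, rose by 0.84 and 0.83 (SE 0.26 and 0.09), the former not called without any 1 of fed replicates 2 and 6 or fasted replicates 5, 7 and 8 (0.63 to 0.82), while Alad, Ppox and Fech, which act between and after them, fell by 0.43, 0.33 and 0.30 (SE 0.10, 0.09 and 0.07). Gclc, which limits glutathione synthesis, fell by 0.60 (SE 0.12, adjusted p = 0.000522) and Txnip, which binds thioredoxin, rose by 0.86 (SE 0.16, adjusted p = 0.000224). Of 36 genes that growth hormone or sex set in the liver, 5 were called higher and 13 lower. Hsd3b2 lay between 5.91 and 7.00 in fed livers and between 2.59 and 5.35 in fasted ones, Selenbp2 between 9.39 and 11.42 and between 6.87 and 9.19, and Fmo2, a flavin monooxygenase, rose by 1.72 (SE 0.20). Of 5 major urinary protein genes, male pheromone carriers whose sequences are nearly identical, 2 were called lower, and 0 without fed replicate 4 or fasted replicate 1 or 7. Hsd3b5, Hsd3b2 and their relatives are near copies in sequence.

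Of 21 clock genes measured, 1 was called, 4.76% against 12.5% of all genes, and 3 were called with the replicate numbers as a block or without dim genes. The 1 called was Per1, which fasting hormones also induce and which lay between 3.39 and 5.27 in fed livers and between 5.28 and 7.53 in fasted ones (change 2.01, SE 0.33, adjusted p = 2.62e-05). The core activators Clock and Arntl had differences of 0.16 and 0.17 (SE 0.07 and 0.22) and Npas2, which can stand in for Clock, by 0.28 (SE 0.33). The repressors Cry1, Cry2, Per3, Nr1d1 and Nr1d2 had differences of -0.29, -0.19, -0.39, -0.44 and -0.28 (SE 0.18, 0.14, 0.28, 0.18 and 0.13), and Bhlhe40 and Bhlhe41 by -0.68 and -0.08 (SE 0.25 and 0.20). The output factors Dbp, Tef, Hlf and Nfil3 had differences of -0.23, -0.11, 0.25 and 0.06 (SE 0.41, 0.20, 0.12 and 0.20).

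Several clock genes varied widely within 1 group. Dbp ranged from 4.95 to 7.70 among fed livers alone, with fed replicate 7 highest, and Npas2 from 2.41 to 5.51, with fed replicate 1 highest. Arntl was lowest in fed replicate 7, at 4.52 against 5.20 for the next. Ciart, Noct and Usp2 had differences of 0.81, 0.52 and 0.86, as large as many called ones, with SE of 0.36, 0.32 and 0.31 and adjusted p of 0.167, 0.383 and 0.0664. Usp2 was called without any 1 of fasted replicates 1 and 3 and fed replicate 7 (0.98 to 1.01), and Bhlhe40 without fasted replicate 5 (-0.83). Rora, Csnk1e and Fbxl21 had differences of 0.12, 0.10 and 0.18 (SE 0.08, 0.10 and 0.13). The hour of sampling is given only as morning, and its part in this spread was not tested.

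Markers of other liver cells moved with some of these groups. Of 12 Kupffer cell markers, 7 were called lower and 0 higher (median -0.59), and their mean level ran from 5.11 to 6.31 over fed livers and from 4.72 to 5.77 over fasted ones. Adgre1, the F4/80 antigen, lay between 4.36 and 5.49 and between 3.52 and 4.85, and Clec4f, found on Kupffer cells alone, between 6.29 and 7.49 and between 5.60 and 6.81, so that both overlapped. Without fed replicates 1, 2 and 3, 0 of the 12 were called, and without fed replicate 2, fasted replicate 5 or fasted replicate 8 the count was 4, 4 and 3. Fewer cells of a type and less RNA per cell cannot be told apart in RNA from liver tissue. The immunoproteasome subunits, which immune cells also express, fell too (Psmb8 not under every setting), and the part of Kupffer cells in those falls was not tested. Of 12 sinusoidal endothelial markers 2 were called higher, Lyve1, a hyaluronan receptor (0.93, SE 0.23), and Bmp2 (0.34, SE 0.11), the latter not called without any 1 of fed replicates 5 to 8 or fasted replicates 2, 4, 5, 6 and 7 (0.30 to 0.34). Of 12 stellate cell and fibroblast markers 1 was called higher and 3 lower, with Col3a1, a fibrillar collagen, at -0.92 (SE 0.14). The 6 cholangiocyte, 10 neutrophil and monocyte (1 call without fasted replicate 4) and 10 skeletal muscle markers had 0 calls, and of 11 lymphocyte markers Ptprc alone was called (-0.56, SE 0.16), and 2 were without fed replicate 2, 7 or 8 or fasted replicate 1. Of 7 exocrine pancreas markers 1 was called higher and 1 lower, and the 1 measured erythroid marker was not called. The mean of 7 adipocyte markers was 2.54 to 2.83 in fed livers and 2.84 to 4.30 in fasted ones, the highest being fasted replicate 4, and only Plin4 was called.

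Families with few or no known roles in liver were dim and were called at low rates. Median levels were 1.23 for olfactory receptors, 1.19 for vomeronasal receptors and 1.57 for keratins. The receptor medians lie in the dimmest level group, of which 0.541% were called, and the keratin median in the next, with 1.77%. Of 1088 olfactory receptor genes 4 were called higher and 1 lower (0.460%), of 285 vomeronasal receptor genes 2 and 0 (0.702%; 0 to 3 and, for the olfactory genes, 3 to 15 calls with 1 array left out), and of 49 keratins 2 and 0 (4 without fasted replicate 4), Krt23 and Krt79 (0.86 and 0.49, SE 0.22 and 0.14).

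The third fast of the other cohort shares no animal with these arrays and measures a 16 h fast under another history. There 2569 genes were called (11.6%), and 1829 genes were called in the same direction in both, 66.1% of the first-fast calls and 71.2% of those of the third fast. All 318 genes that changed by more than 2-fold in the first fast had the same sign in the third, and 304 of them were called there. The sizes were a little smaller: for the first-fast rises over 2-fold, the median was 1.37 in the first and 1.21 in the third fast, and for the falls -1.45 and -1.34. These genes were chosen for their size in the first fast. The test of the difference called 0 of 22180 genes (limma, smallest adjusted p = 0.135; 1023 genes at an unadjusted p under 0.05). The 5 called genes with the smallest p for it were all modest: Ccnjl (-0.33 in the first and 0.41 in the third fast), Arhgap31 (0.34 and -0.43), Angel1 (0.52 and -0.13), Ttc9c (-0.47 and 0.04) and Eepd1 (-0.40 and -1.05). The first-fast calls of Arhgap31 and Ccnjl were lost without any 1 of 7 and of 4 arrays, with changes of 0.28 to 0.33 and of -0.27 to -0.31. For some genes the fasted minus fed values of the first and the third fast lay apart without a call on the difference: Lpin1 had 0.93 and 0.04, Cyp7a1 -0.06 and 1.30, and Gadd45g 3.04 and 0.76 (adjusted p of the difference 0.999 for each). These 3 were picked after their values were seen.

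Genes that sit side by side sometimes moved together. In the order of the RefSeq annotation (GRCm38.p6), used here only for which genes neighbour each other, 38 of the 294 protein-coding genes changed by more than 2-fold lay in 17 runs of neighbours that moved the same way. The longest were Acot2, Acot1, Acot4 and Acot3, which rose by 4.35, 4.62, 1.73 and 2.93, and 4 genes around Hsd3b5 and Hsd3b2, which fell. The change of Acot4 ran from 1.21 to 1.86 over 26 alternative fits. Other runs were pairs of relatives, such as Mt2 and Mt1, Plin4 and Plin5 or Cyp2c39 and Cyp2c38, whose probes may share signal. Some were not relatives: Fdps and Pklr, a sterol and a glycolytic enzyme, both fell (changes -3.59 and -1.73), as did Mvk and Mmab, of mevalonate and vitamin B12 metabolism (-1.44 and -1.75), and Nnmt and Zbtb16 both rose (1.30 and 1.56).

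Probe sets without a single gene symbol were fitted apart. Of 1814 with several symbols, 51 were called higher and 59 lower (6.06%), with changes of up to 6.15 and down to -3.12. Of 16010 with none, 152 were called higher and 109 lower (1.63%), and these were not named.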

How the data were processed

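The log2 values deposited by the authors were used, made with RMA per the submitters' processing notes (its version and the annotation build are not given in the sources used here). Per the labels' protocols, 100 ng of RNA from each liver was hybridised. Of 41345 probe sets, 23521 had a single symbol, and the brightest over 31 arrays stood for each of 22180 genes. Array medians lay between 2.01 and 2.07.

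A model of 4 group means was fitted to all 31 arrays with limma 3.58.1 (lmFit, eBayes) in R 4.3.3, with Benjamini-Hochberg adjustment over 22180 genes, after a test on simulated data. The p-values test a difference of group means against the spread between animals within groups, pooled over the 4 groups and moderated across genes. Members and gene lists were chosen with earlier results of these data known. Most of the genes named were drawn from a rule. It took the 20 largest rises and falls, the 10 smallest p-values under 2-fold and up to 4 called members per list and direction. It added 5 by the difference from the third fast and fixed genes, and left out predicted gene models. The rule gave 324 genes, and only a part of them is named here, out of 233 named genes in all. The named genes outside the rule, chosen after their values were seen, were Acaca, Acot4, Acss2, Clec4f, Cpox, Cyp11b1, E030018B13Rik, Elovl6, Fads1, Fads2, G0s2, Glud1, Inhbe, Jun, Mmab, Nr4a1, Scd1, Sik1, Th and Ucp1. Alternatives were the 16 arrays alone, a replicate block, an intensity trend with robust prior, median centring, cyclic loess, no dim genes, probe set means, array weights, each array left out, an exact Wilcoxon test, and, chosen after seeing the data, leaving out fasted replicates 4 and 5 or fed replicates 1, 2 and 3. Promoter sequences came from RefSeq (GRCm38.p6).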

Additional observations from a re-analysis of the deposited data

Results flagged for a closer look

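An array was marked where its gap to the nearest of the other 7 exceeded Dixon's 95% critical share of its group's whole range, which chance passes in about 1 of 20 groups. Of 490 groups tested, 37 (7.55%) had such an array, and fasted replicate 5 accounted for 12 of them. The groups were those of the genes named here, the marker lists and the response slope. Some genes, among them Cyp11b1, Th, Ucp1, Jun, Nr4a1 and Sik1, were named after their values were seen. The share can therefore not be set against the chance rate.

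In fasted replicate 5 the high values were Ass1 at 7.50 (next 6.26), Cidec at 9.58, Ctcflos at 7.36, Cyp17a1 at 10.53, Jun at 8.46, Lepr at 8.17, Nr4a1 at 8.37, Pnpla2 at 8.33, Sik1 at 8.58 and Slc25a25 at 9.05, and Fdft1 was low at 7.11. Its response slope, 1.24, was also the highest of its group, with the next at 1.05. In fasted replicate 4, Cyp11b1 at 7.57, Th at 5.07, Ucp1 at 6.78 and the mean of 7 adipocyte markers at 4.30 stood above the other 7 fasted livers.

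The remaining marks were scattered over arrays. In fed replicate 2, Alas1 (7.59), C4a (3.88) and Serpina4-ps1 (7.77) were low. In fed replicate 3, Eepd1 (4.56), Fdft1 (8.83) and Nsdhl (8.51) were low. In fed replicate 7, Cyp2c39 (4.24), Slc27a1 (3.42), Slco1a4 (6.98) and Ucp1 (1.97) were high. In fed replicate 1, Cd36 (7.82) and Npas2 (5.51) were high, and in fed replicate 4, Nr1d2 was high (7.22) and Asl low (9.09). Among fasted livers, Cyp2c70 (10.19) was high and Slc27a1 (4.79) low in replicate 2, Krt23 (4.31) was high in replicate 3, Bhlhe41 (2.66) and Ddost (8.02) were high in replicate 8, and in replicate 1 Ech1 (10.58) was low and the mean of 10 skeletal muscle markers (1.93) high.

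For Arhgap31 and Ccnjl the first and the third fast were called in opposite directions. Arhgap31 changed by 0.34 in the first and by -0.43 in the third fast, and Ccnjl by -0.33 and by 0.41, but the limma test of the difference gave adjusted p = 0.135 and 0.135.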

How the results depend on the processing

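The number of genes called in the first fast was 2768 and ranged from 2236 to 3091 over the settings tried, all within 1.5 times of it, and the number changed by more than 2-fold ranged from 294 to 341. Leaving out 1 array gave 2439 (without fasted replicate 5) to 2757 calls, leaving out fasted replicates 4 and 5 gave 2358, and leaving out fed replicates 1, 2 and 3 gave 2236. An exact Wilcoxon test called 2286 genes. The titles do not say whether the replicate numbers pair arrays across groups, and the arrays were not treated as pairs. Deviations of same-numbered fed and fasted arrays correlated between -0.0483 and 0.0817. With the numbers as a replicate block 2812 genes were called, 318 of them changed by more than 2-fold. The number of lists above the share of all genes was 39 with and without the block, but not of the same lists: the clock genes went from 1 to 3 calls and the sinusoidal endothelial markers from 2 to 1. The named genes were followed singly under all alternatives but the exact Wilcoxon test, which kept 77.6% of all main calls. Of 201 called genes named here, 185 were called under all of these fits that held the gene. Another 16 lost the call under at least 1 and 0 reversed. Of the uncalled ones, 4 gained a call under at least 1 (Bhlhe40, Nr1d1, Sik1 and Usp2). Without fed replicates 1, 2 and 3, the calls of Adgre1 (-0.61), Ass1 (0.97), Clec4f (-0.39), Ppara (0.33) and Ptprc (-0.42) were lost, as was that of Pdk4 (0.83) without fasted replicates 4 and 5. The test of the first against the third fast called 0 genes under all 7 alternatives run. In these cases the cause was not tested. Dim genes lie close to background, so an uncalled dim gene may still have changed.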
